A study of Homo sapiens with 3 samples.

Results

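The genes described here lie close together on the long arm of human chromosome 8, in bands q21.3 to q22.1, from RIPK2 to MATN2 and around CDH17. The list holds 34 genes in map order and was chosen from measured differences between LoVo-R8 and parental LoVo cells on these same arrays, so the differences from parental LoVo below are a description and support nothing by themselves. Of the 34, 30 were measured by a probe set that names 1 gene, out of 18417 such genes on the array, and each of the 30 has a single such probe set. ESRP1, LRRC69, SLC26A7 and TRIQK were not analysed here. RNA came from 3 cultures of the human colorectal cancer line LoVo, with 1 Affymetrix Human Gene 1.0 ST array for each. By the sample titles, LoVo 8R+ is the irinotecan-resistant line LoVo-R8 grown with 8 μM irinotecan, and LoVo 8R- is the same line grown free of the drug. The third culture is parental LoVo. A legend of the paper names LoVo 8R- as the source of its values. Its table, however, lists a fold change for TP53INP1 that matches the LoVo 8R+ array here and not LoVo 8R-. On these arrays TP53INP1 was 1.36-fold of parental LoVo in LoVo 8R+ and 2.12-fold in LoVo 8R-. Whether the titles or the legend is in error cannot be told here, so each statement about the drug rests on the titles. LoVo-R8 was raised from LoVo by stepping irinotecan up between 0.1 and 8 μM, and whether it is 1 clone is not stated in the sources used. A note common to all sample labels speaks of irinotecan being given before RNA was taken, and it does not say whether the parental culture is meant.

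Genes of a stretch like this one share a place on the chromosome and not a pathway. A cell that gains or loses a chromosome piece changes the template number of every gene on it, and neighbours can also share enhancers and chromatin domains, while each gene keeps its own promoter and its own regulators. The arrays measure RNA, and DNA copy number was not measured. In the colon the best known gene here is CDH17, which encodes liver-intestine cadherin, an adhesion protein of the gut epithelium. NBN and RAD54B encode proteins of double-strand break repair by recombination, the kind of damage that follows when the active form of irinotecan traps topoisomerase I at a replication fork. The other members include enzymes of mitochondria, proteins of the primary cilium, RNA-processing factors and membrane proteins of the endosome and lysosome.

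Levels are given as RMA log2 levels, so a difference of 1 is 2-fold. They were not compared between genes, because each probe set has its own brightness. The array medians were between 6.94 and 6.95, and the first quartiles between 5.39 and 5.42. With 1 array per condition no value has an error and no test was run, and both differences from parental LoVo use the same parental array. As a scale, LoVo 8R+ and LoVo 8R- differed by less than 0.53 for 95% of all genes. In whole cultures, fewer cells of a kind and less RNA per cell cannot be told apart. Of 10 epithelial markers of the colon, 7 in LoVo 8R+, 6 in LoVo 8R- and 8 in parental LoVo were at or above the third quartile of the array, while KRT20 was at or below the array median on all 3 arrays. No fibroblast, leukocyte or endothelial marker measured (0 of 13) reached that quartile on any array.

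At 2-fold and set against parental LoVo, LoVo 8R+ had 5 of the 30 measured members higher and 0 lower, against 2.25% of all genes higher and 2.3% lower. In LoVo 8R-, 5 members were higher and 0 lower, against 1.64% and 2.78% of all genes. CFAP418, GEM and CDH17 were past 2-fold on both LoVo-R8 arrays. PDP1 and RAD54B were past it in LoVo 8R+, and RIPK2 and PLEKHF2 in LoVo 8R-. At 1.5-fold, LoVo 8R+ had 8 members higher and 0 lower (5.79% and 7.19% of all genes), and LoVo 8R- had 7 higher and 0 lower (4.37% and 8.84% of all genes). The median log2 difference of the members was 0.28 in LoVo 8R+ and 0.22 in LoVo 8R-, beside 0.00 for all genes on each. These counts come from the contrasts that chose the stretch, so they describe its members only.

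**Figure D1:**
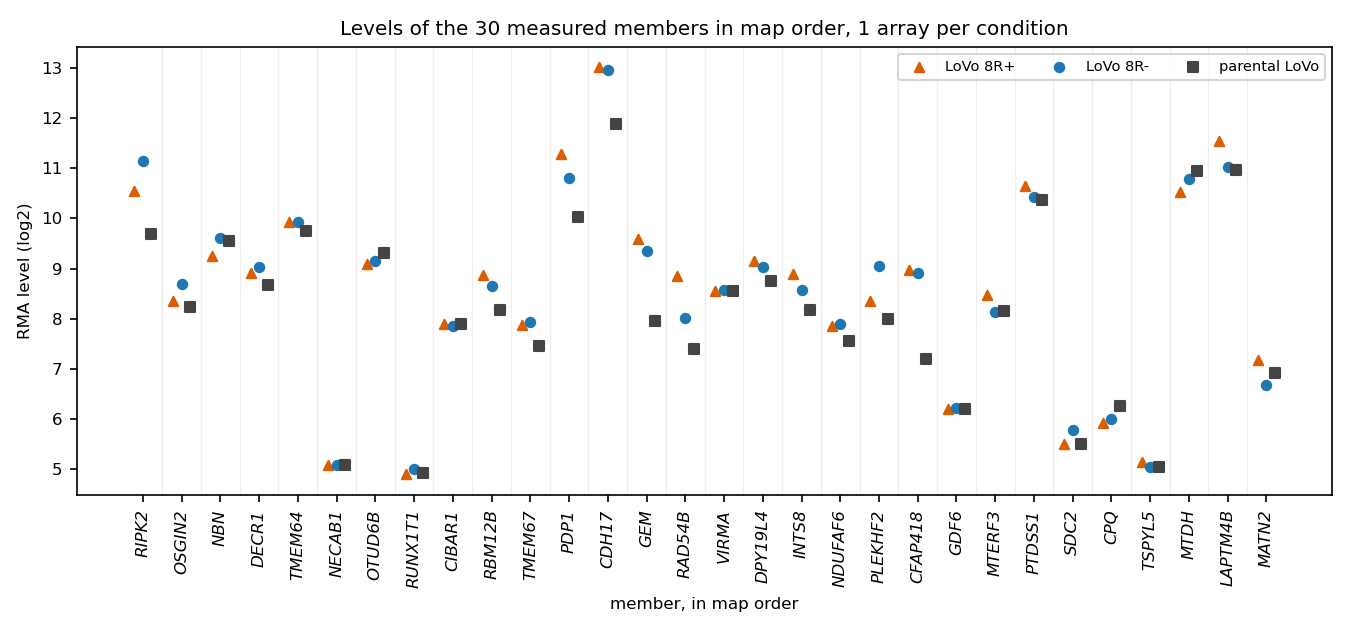
RMA log2 level (vertical axis) of each measured member in map order (horizontal axis) in LoVo 8R+ (triangles), LoVo 8R- (circles) and parental LoVo (squares), 1 array each; heights of different genes are not comparable. CDH17 (13.01 in LoVo 8R+, 12.95 in LoVo 8R-, 11.89 in parental LoVo) and CFAP418 (8.97 in LoVo 8R+, 8.92 in LoVo 8R-, 7.20 in parental LoVo) have both LoVo-R8 points together above the parental one.

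Some members had little signal. The mean level over the 3 arrays was below the gene median of 7.51 for 7 of the 30, NECAB1, RUNX1T1, GDF6, SDC2, CPQ, TSPYL5 and MATN2. These 7 lay between -0.34 and 0.27 in LoVo 8R+ and between -0.26 and 0.28 in LoVo 8R-, and NECAB1, RUNX1T1 and TSPYL5 were below the first quartile on all 3 arrays. Equal values to within 0.0005 occurred on at least 2 arrays for 5 members, as for 26.3% of all probe sets. Such ties were not confined to little signal, since VIRMA, 1 of these 5, had a mean level of 8.57.

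Along the map, most members past 2-fold sat in the middle of the stretch, with RIPK2 at its start as the exception in LoVo 8R-. From RBM12B to CFAP418, a run picked out after its values were seen, 12 measured members had their median difference at 0.70 in LoVo 8R+, with 0.55 in LoVo 8R-, and 5 of them in LoVo 8R+ and 4 in LoVo 8R- were past 2-fold. VIRMA had the lowest differences of the members in this run, at 0.00 in LoVo 8R+, with 0.01 in LoVo 8R-. Its value in LoVo 8R+ equalled the parental one, and equal values on at least 2 arrays occurred for 26.3% of all probe sets. Among genes not on the list, CCNE2, with -1.25 (LoVo 8R+) and -3.35 (LoVo 8R-), also lies within it. So does TP53INP1, with 0.44 (LoVo 8R+) and 1.08 (LoVo 8R-). The 9 measured members before the run, RIPK2 to CIBAR1, had medians of 0.01 (LoVo 8R+) and 0.08 (LoVo 8R-), and RIPK2 was the only one of them past 1.5-fold on either array. Between these members lie genes not on the list, PIP4P2, with 1.28 (LoVo 8R+) and 1.22 (LoVo 8R-), and CALB1, with -6.26 (LoVo 8R+) and -7.02 (LoVo 8R-). The 9 members after the run, GDF6 to MATN2, had medians of 0.09 (LoVo 8R+) and 0.00 (LoVo 8R-), and 0 of them passed 1.5-fold.

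**Figure D2:**
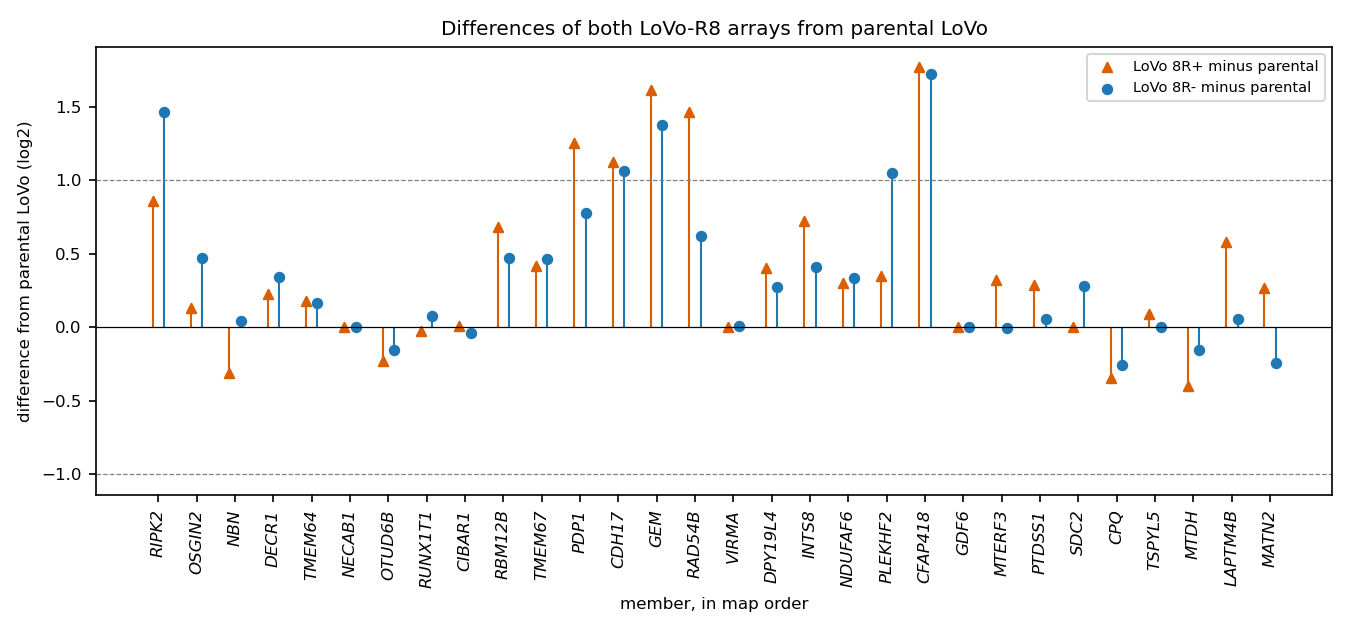
Log2 difference from parental LoVo (vertical axis) of each measured member in map order (horizontal axis) in LoVo 8R+ (triangles) and LoVo 8R- (circles), with dashed lines at 2-fold. The points past 2-fold lie mostly between PDP1 and CFAP418, and no member reaches -1.

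Among the adhesion and matrix genes, CDH17 stood apart. Its log2 level was 13.01 in LoVo 8R+, 12.95 in LoVo 8R- and 11.89 in parental LoVo, which is 2.18-fold (LoVo 8R+) and 2.09-fold (LoVo 8R-) of the parental level. Both LoVo-R8 levels were thus above the parental one and differed from each other by only 0.06. MTDH, which encodes metadherin, a protein overproduced in many carcinomas, went the other way at 10.54 in LoVo 8R+, 10.78 in LoVo 8R- and 10.94 in parental LoVo. Its difference of -0.40 in LoVo 8R+ was the lowest of all members there and is short of 1.5-fold. The heparan sulphate proteoglycan gene SDC2 was at 5.49 in LoVo 8R+, 5.78 in LoVo 8R- and 5.49 in parental LoVo, lowest and equal in LoVo 8R+ and parental LoVo. MATN2, a matrilin gene of the extracellular matrix, had 7.18 in LoVo 8R+, 6.67 in LoVo 8R- and 6.91 in parental LoVo, so its LoVo-R8 levels lay on either side of the parental one.

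The cilium genes included the member with the largest differences. CFAP418, whose protein is needed by photoreceptor cells and is mutated in inherited retinal dystrophy, had a level of 8.97 in LoVo 8R+, 8.92 in LoVo 8R- and 7.20 in parental LoVo. That is 3.41-fold (LoVo 8R+) and 3.30-fold (LoVo 8R-) of parental LoVo, and from the highest difference down CFAP418 was number 103 of all 18417 genes in LoVo 8R+ and number 73 in LoVo 8R-. TMEM67, which encodes meckelin of the ciliary transition zone, had smaller differences of 0.42 (LoVo 8R+) and 0.47 (LoVo 8R-). CIBAR1, a gene of ciliary basal body function, had 0.01 (LoVo 8R+) and -0.04 (LoVo 8R-). So 1 of these 3 genes passed 1.5-fold on each array.

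In the signalling group, GEM and RIPK2 were the genes past 2-fold. GEM encodes a small GTPase that restrains voltage-gated calcium channels. Its level was 9.58 in LoVo 8R+, 9.34 in LoVo 8R- and 7.96 in parental LoVo, which makes 3.07-fold (LoVo 8R+) and 2.60-fold (LoVo 8R-) of parental LoVo. RIPK2, the kinase that relays signals of the receptors NOD1 and NOD2 to NF-kappaB, was at 10.55 in LoVo 8R+, 11.15 in LoVo 8R- and 9.69 in parental LoVo. It was 1.81-fold of the parental level in LoVo 8R+ and 2.76-fold in LoVo 8R-, so its 2-fold call depends on which LoVo-R8 array is read. OSGIN2 had differences of 0.13 (LoVo 8R+) and 0.47 (LoVo 8R-), and the deubiquitinase gene OTUD6B of -0.23 (LoVo 8R+) and -0.16 (LoVo 8R-). GDF6, a ligand gene of the bone morphogenetic protein family, was at 6.21 on all 3 arrays.

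The recombination genes differed from each other. RAD54B, a DNA translocase of homologous recombination, had a level of 8.86 in LoVo 8R+, 8.01 in LoVo 8R- and 7.39 in parental LoVo. Its 2.76-fold difference in LoVo 8R+ and 1.54-fold difference in LoVo 8R- placed the LoVo 8R- array between the other two. NBN, the nibrin subunit of the MRE11 complex that senses double-strand breaks, was at 9.25 in LoVo 8R+, 9.60 in LoVo 8R- and 9.56 in parental LoVo, within 1.5-fold throughout. RUNX1T1, a corepressor gene, and TSPYL5, of the nucleosome assembly protein family, were near the bottom of the arrays and lay between -0.03 and 0.09 of parental LoVo.

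The mitochondrial genes lay above their parental levels, except MTERF3 in LoVo 8R-. PDP1, the phosphatase that switches pyruvate dehydrogenase on, had the largest difference of them, with levels of 11.29 in LoVo 8R+, 10.81 in LoVo 8R- and 10.03 in parental LoVo. It was 2.39-fold (LoVo 8R+) and 1.71-fold (LoVo 8R-) of the parental level. DECR1, an enzyme for the oxidation of unsaturated fatty acids, differed by 0.23 in LoVo 8R+ and by 0.35 in LoVo 8R-, and NDUFAF6, an assembly factor of respiratory complex I, by 0.30 (LoVo 8R+) and 0.34 (LoVo 8R-). MTERF3, which acts on mitochondrial transcription, had 0.32 in LoVo 8R+ and a level of 8.14 in LoVo 8R- against 8.15 in parental LoVo. PDP1 was therefore the one mitochondrial member past 1.5-fold.

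RNA-processing members were within 2-fold. INTS8, a subunit of the Integrator complex that trims small nuclear RNAs, was at 8.89 in LoVo 8R+, 8.57 in LoVo 8R- and 8.17 in parental LoVo, a difference of 0.72 (LoVo 8R+) and 0.41 (LoVo 8R-). The RNA-binding protein gene RBM12B had differences of 0.69 (LoVo 8R+) and 0.47 (LoVo 8R-). VIRMA, the scaffold of the writer complex for N6-methyladenosine in RNA, was at 8.56 in LoVo 8R+, 8.57 in LoVo 8R- and 8.56 in parental LoVo, with the value in LoVo 8R- alone slightly apart.

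Of the membrane and endosome genes, PLEKHF2 varied most. This gene of an endosomal protein that binds phosphoinositides was at 8.35 in LoVo 8R+, 9.04 in LoVo 8R- and 7.99 in parental LoVo. Its difference was 0.35 in LoVo 8R+ and 1.05 in LoVo 8R-, past 2-fold in LoVo 8R- alone. LAPTM4B, a lysosomal membrane protein gene, was higher in LoVo 8R+ than in LoVo 8R-, unlike PLEKHF2, with 11.55 in LoVo 8R+, 11.03 in LoVo 8R- and 10.97 in parental LoVo. PTDSS1, which encodes a phosphatidylserine synthase, had differences of 0.29 (LoVo 8R+) and 0.06 (LoVo 8R-), DPY19L4 of 0.40 (LoVo 8R+) and 0.28 (LoVo 8R-), and TMEM64 of 0.18 (LoVo 8R+) and 0.17 (LoVo 8R-). The remaining members were CPQ, a carboxypeptidase gene, with -0.34 (LoVo 8R+) and -0.26 (LoVo 8R-), and NECAB1, a calcium-binding protein gene, at 5.10 on all 3 arrays.

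The drug in the medium, as assigned by the sample titles, was compared through the LoVo-R8 arrays alone, a contrast without the parental array. At 2-fold, 0 of 30 members were higher and 0 lower in LoVo 8R+ than in LoVo 8R-, where 0.527% of all genes were higher and 0.114% lower. At 1.5-fold, 1 member was higher and 2 were lower, against 2.87% and 1.08% of all genes. The median of the members was 0.01. RAD54B was the higher one, with a level of 8.86 in LoVo 8R+, against 8.01 in LoVo 8R-, a difference of 0.84 that ranked 178 from the top of all genes. PLEKHF2 was the lowest, with 8.35 in LoVo 8R+ and 9.04 in LoVo 8R- (-0.70, rank 104 from the bottom). RIPK2 followed with 10.55 in LoVo 8R+ and 11.15 in LoVo 8R- (-0.61). These 3 members exceeded the 0.53 within which 95% of genes lay, and PDP1 (0.48), LAPTM4B (0.52) and MATN2 (0.51) came close to it on the higher side. Such a difference between single cultures holds both the drug and any other difference between them, which cannot be told apart.

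**Figure D3:**
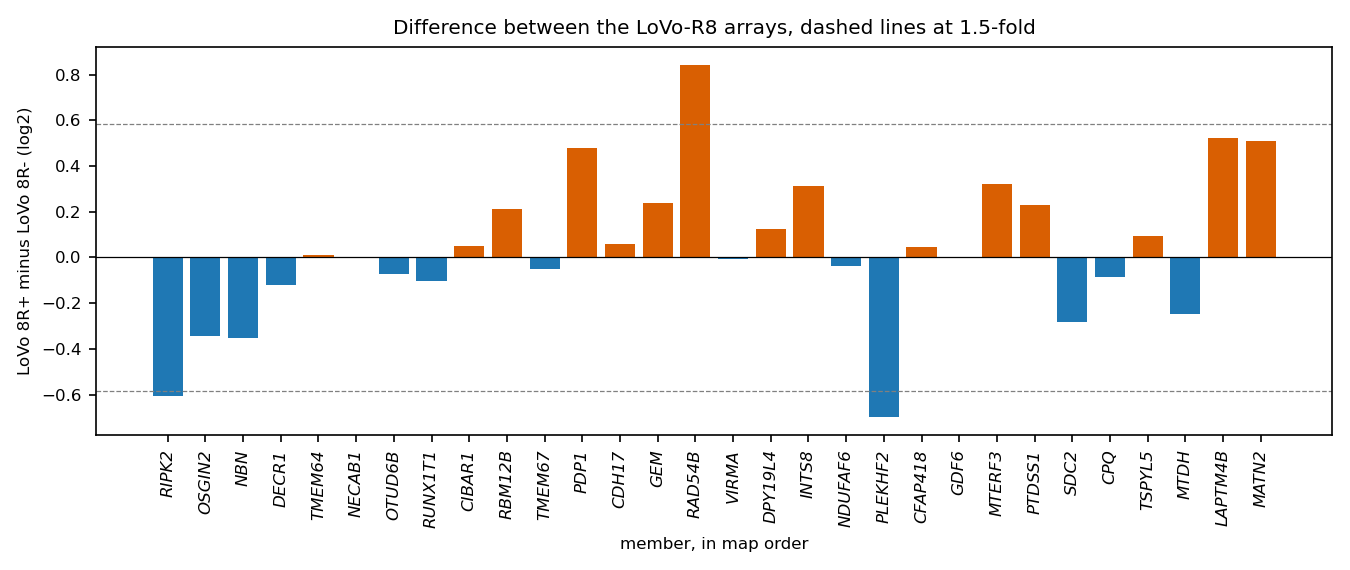
Log2 difference of LoVo 8R+ minus LoVo 8R- (vertical axis) for each measured member in map order (horizontal axis), orange where LoVo 8R+ was higher and blue where it was lower, with dashed lines at 1.5-fold. RAD54B is past the upper line at 0.84, and PLEKHF2 (-0.70) and RIPK2 (-0.61) are past the lower one.

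The first 4 measured members of the map, RIPK2, OSGIN2, NBN and DECR1, were each lower in LoVo 8R+ than in LoVo 8R-, by differences of -0.61, -0.34, -0.35 and -0.12. The neighbours PDP1, CDH17, GEM and RAD54B were each higher in LoVo 8R+, by 0.48, 0.06, 0.24 and 0.84. Both groups of neighbours were picked after their values were seen, and most of these differences are within the 0.53 given above.

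The listed members are not all genes of the stretch. The RefSeq annotation of GRCh38.p14 has 41 protein-coding genes from RIPK2 to MATN2, of which 35 were measured, so 5 measured genes were not on the list. They include the genes with the lowest differences of the stretch, CALB1 and CCNE2. CALB1, which encodes the calcium-binding protein calbindin and lies between DECR1 and TMEM64, was at 6.47 in LoVo 8R+, 5.72 in LoVo 8R- and 12.73 in parental LoVo, a log2 difference of -6.26 (LoVo 8R+) and -7.02 (LoVo 8R-) that was the lowest of all 18417 genes on each array. The cyclin gene CCNE2, between INTS8 and NDUFAF6, was at 8.38 in LoVo 8R+, 6.29 in LoVo 8R- and 9.63 in parental LoVo. TP53INP1, a p53-induced gene next to NDUFAF6, had differences of 0.44 (LoVo 8R+) and 1.08 (LoVo 8R-), PIP4P2, a phosphoinositide phosphatase gene, 1.28 (LoVo 8R+) and 1.22 (LoVo 8R-), and the complex III subunit gene UQCRB 0.28 (LoVo 8R+) and 0.00 (LoVo 8R-). Over all 35 genes the median was 0.28 in LoVo 8R+ and 0.17 in LoVo 8R-, with 6 genes in LoVo 8R+ and 7 in LoVo 8R- at least 2-fold higher and 2 in each at least 2-fold lower, beside the 2.25% (LoVo 8R+) and 1.64% (LoVo 8R-) of all genes higher and 2.3% and 2.78% lower. LoVo 8R+ minus LoVo 8R- was 2.10 for CCNE2, 0.76 for CALB1 and -0.64 for TP53INP1, all 3 past the 0.53 within which 95% of genes lay.

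At the ends of the stretch, RIPK2 (0.86 in LoVo 8R+, 1.46 in LoVo 8R-) is the first member inside and MMP16, with 0.00 (LoVo 8R+) and 0.00 (LoVo 8R-), is the first gene outside. MATN2 (0.27 in LoVo 8R+, -0.24 in LoVo 8R-) is the last inside and the ribosomal protein gene RPL30 (0.15 in LoVo 8R+, 0.19 in LoVo 8R-) the next outside. Before RIPK2 and beyond MMP16, DCAF4L2 had -0.16 (LoVo 8R+) and 0.01 (LoVo 8R-), CNBD1 and CNGB3 0.00 on both arrays, and CPNE3 0.08 (LoVo 8R+) and 0.21 (LoVo 8R-). MMP16, CNBD1 and CNGB3 had levels of 5.14, 3.87 and 5.02, equal on all 3 arrays and below the first quartile of each. Their values of 0.00 thus come from genes with little signal and do not mark where a difference ends. Beyond RPL30, ERICH5 had -0.20 (LoVo 8R+) and 0.10 (LoVo 8R-), RIDA 0.52 (LoVo 8R+) and 0.57 (LoVo 8R-), POP1, a ribonuclease P subunit gene, -0.37 (LoVo 8R+) and -0.68 (LoVo 8R-), and NIPAL2 0.60 (LoVo 8R+) and 0.67 (LoVo 8R-). None of these 10 genes reached 2-fold. Farther out than CPNE3, RMDN1 had 0.51 (LoVo 8R+) and 0.65 (LoVo 8R-), and WWP1 0.60 (LoVo 8R+) and 0.16 (LoVo 8R-). RMDN1 and WWP1 were named after their values were seen.

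The 30 measured protein-coding genes before the stretch had their median at 0.08 in LoVo 8R+ and at 0.10 in LoVo 8R-, and the 30 after it at 0.16 (LoVo 8R+) and 0.14 (LoVo 8R-). The members had 0.28 (LoVo 8R+) and 0.22 (LoVo 8R-). Among genes with a mean level at or above the gene median, those before the stretch had the highest medians. The 13 such genes before it had 0.60 (LoVo 8R+) and 0.70 (LoVo 8R-). The 23 such members had 0.35 on both arrays, and the 20 such genes after the stretch 0.32 (LoVo 8R+) and 0.19 (LoVo 8R-). Some genes, such as CA13 before the stretch and the members CFAP418, RAD54B and TMEM67, pass this filter only through their LoVo-R8 levels. Of the 30 genes before the stretch, 3 were at least 2-fold higher and 2 lower in LoVo 8R+, while LoVo 8R- had 4 higher and 2 lower. Of the 30 after it, 1 was higher and 2 were lower on each LoVo-R8 array. Of all genes, LoVo 8R+ had 2.25% higher and 2.3% lower, and LoVo 8R- had 1.64% higher and 2.78% lower. Whether the members differ from these neighbours was not tested. The 603 genes of the rest of chromosome 8, which include the neighbours, had medians of 0.00 (LoVo 8R+) and 0.01 (LoVo 8R-).

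**Figure D4:**
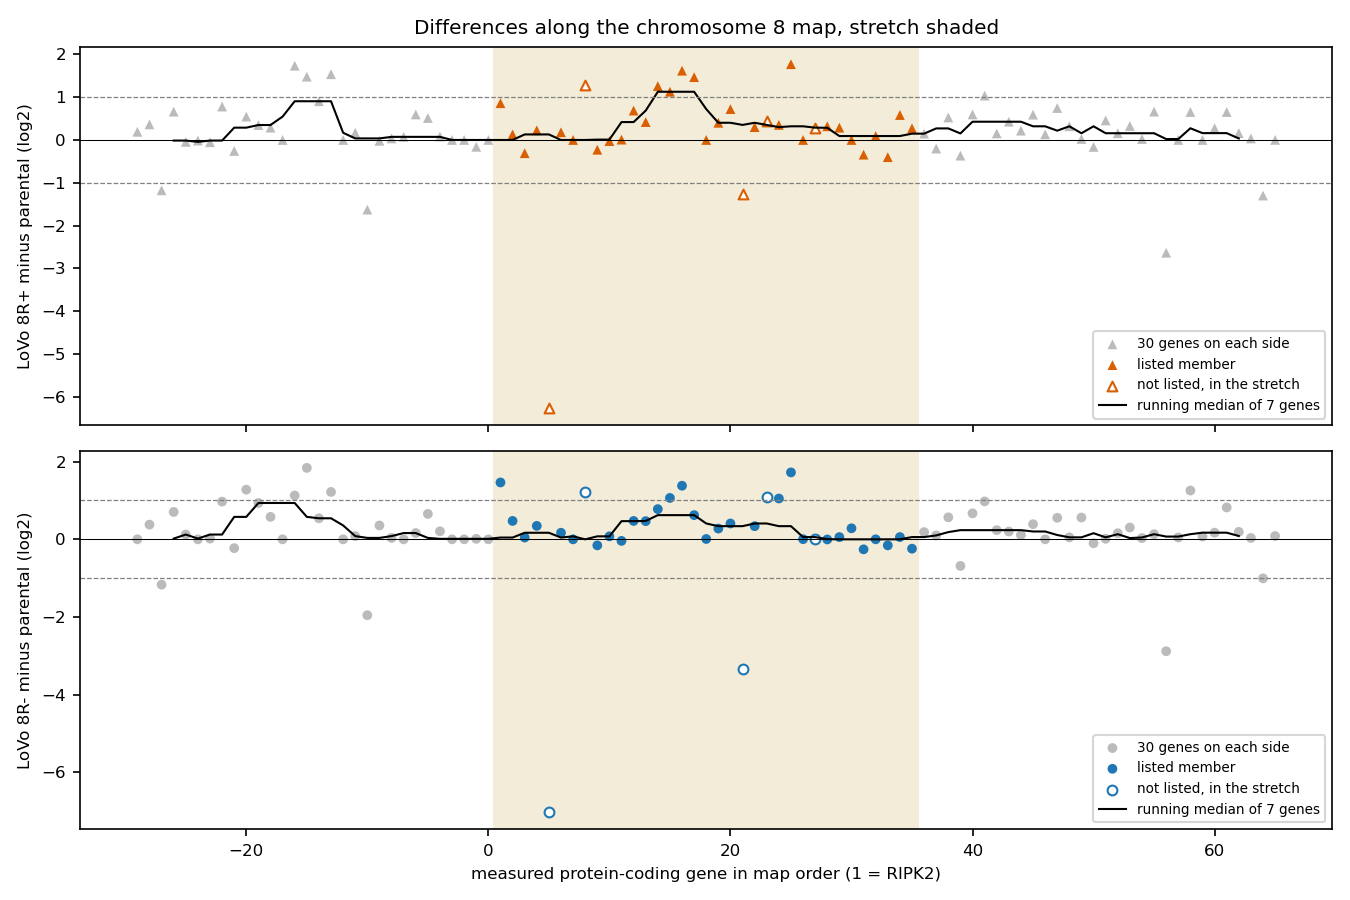
Log2 difference from parental LoVo (vertical axis) in LoVo 8R+ (upper panel) and LoVo 8R- (lower panel) for each measured protein-coding gene of the stretch (shaded) and 30 on each side in map order (horizontal axis, 1 is RIPK2), with listed members filled, other genes of the stretch open, neighbours grey and a running median of 7 genes as a black line. CALB1 lies at -6.26 (LoVo 8R+) and -7.02 (LoVo 8R-), far below the members, and grey points before the stretch reach 1.73 (LoVo 8R+) and 1.84 (LoVo 8R-).

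Genes outside the stretch that work with the members were taken from 14 lists, of which 104 of 111 genes were measured. At 2-fold, LoVo 8R+ had 1 of the 104 higher and 7 lower, and LoVo 8R- had 0 higher and 7 lower, with medians of -0.04 (LoVo 8R+) and -0.12 (LoVo 8R-). Beside these stand all genes, with 2.25% higher and 2.3% lower for LoVo 8R+ and 1.64% higher and 2.78% lower for LoVo 8R-, so in a list of a few genes a count of 0 is not a result about the list. The 4 measured partners of NBN in break signalling lay between -0.23 and 0.04 in LoVo 8R+ and between -0.19 and 0.00 in LoVo 8R-. Of the 13 other Integrator subunits 0 passed 2-fold, and their medians were -0.16 (LoVo 8R+) and -0.23 (LoVo 8R-), against 0.72 (LoVo 8R+) and 0.41 (LoVo 8R-) for INTS8. Likewise 0 of the 7 other m6A writer genes, 8 mitochondrial transcription genes, 5 phosphatidylserine genes, 5 genes of the syndecan list and 2 LAPTM family genes passed 2-fold on either array.

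The partners past 2-fold were mostly lower than in parental LoVo. DLAT, the acetyltransferase core of the pyruvate dehydrogenase that PDP1 acts on, was at -1.34 from parental LoVo in LoVo 8R+ and at -1.45 in LoVo 8R-, opposite in sign to PDP1. TMEM216, a transition zone partner of TMEM67, had -1.22 (LoVo 8R+) and -1.47 (LoVo 8R-), and NDUFAF1, an assembly factor of complex I like NDUFAF6, -0.83 (LoVo 8R+) and -1.05 (LoVo 8R-). In the list of NOD receptor signalling, RBCK1 of the linear ubiquitin ligase had -1.44 in LoVo 8R+ and -0.40 in LoVo 8R-. ECI2, a fatty acid oxidation enzyme like DECR1, was the higher one, with 1.65 (LoVo 8R+) and 0.93 (LoVo 8R-). Members and the genes of their own complex or pathway thus did not all differ in the same direction.

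The partners of CDH17 and ESRP1 and other epithelial genes were mostly lower than in parental LoVo, with CDX1 and CDX2 higher on both arrays. Those past 2-fold were all lower. E-cadherin (CDH1), the general epithelial cadherin, was at 9.0 in LoVo 8R+, 8.20 in LoVo 8R- and 11.26 in parental LoVo, and the galectin gene LGALS4 at 8.59 in LoVo 8R+, 8.33 in LoVo 8R- and 10.60 in parental LoVo. The epithelial regulators GRHL2, which is also a neighbour of the stretch, with differences of -2.63 (LoVo 8R+) and -2.88 (LoVo 8R-), and OVOL1, with -1.62 (LoVo 8R+) and -1.20 (LoVo 8R-), were lower as well. CDX2, a transcription factor that drives CDH17 in the intestine and is named here after its value was seen, was 0.91 above parental LoVo in LoVo 8R+ and 0.35 above it in LoVo 8R-. Its relative CDX1 was at 0.17 (LoVo 8R+) and 0.25 (LoVo 8R-), and the villin gene VIL1 at 0.00 (LoVo 8R+) and -0.55 (LoVo 8R-). Of the splicing regulator genes, ESRP2 had -0.07 (LoVo 8R+) and 0.11 (LoVo 8R-), and RBM47 -0.11 (LoVo 8R+) and 0.10 (LoVo 8R-). These 4 were also named after their values were seen. Among the other epithelial markers, CEACAM5 had -2.11 (LoVo 8R+) and -2.37 (LoVo 8R-), and EPCAM -0.30 (LoVo 8R+) and -0.43 (LoVo 8R-). KRT8, KRT18, KRT19 and KRT20 were also lower on both arrays, and only CDX2 of the markers was higher on both. The median level of the 10 epithelial markers, which include CDH1, LGALS4 and CDX2, was 10.09 in LoVo 8R+, 9.68 in LoVo 8R- and 11.63 in parental LoVo, and its part in the CDH17 difference was not tested.

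**Figure D5:**
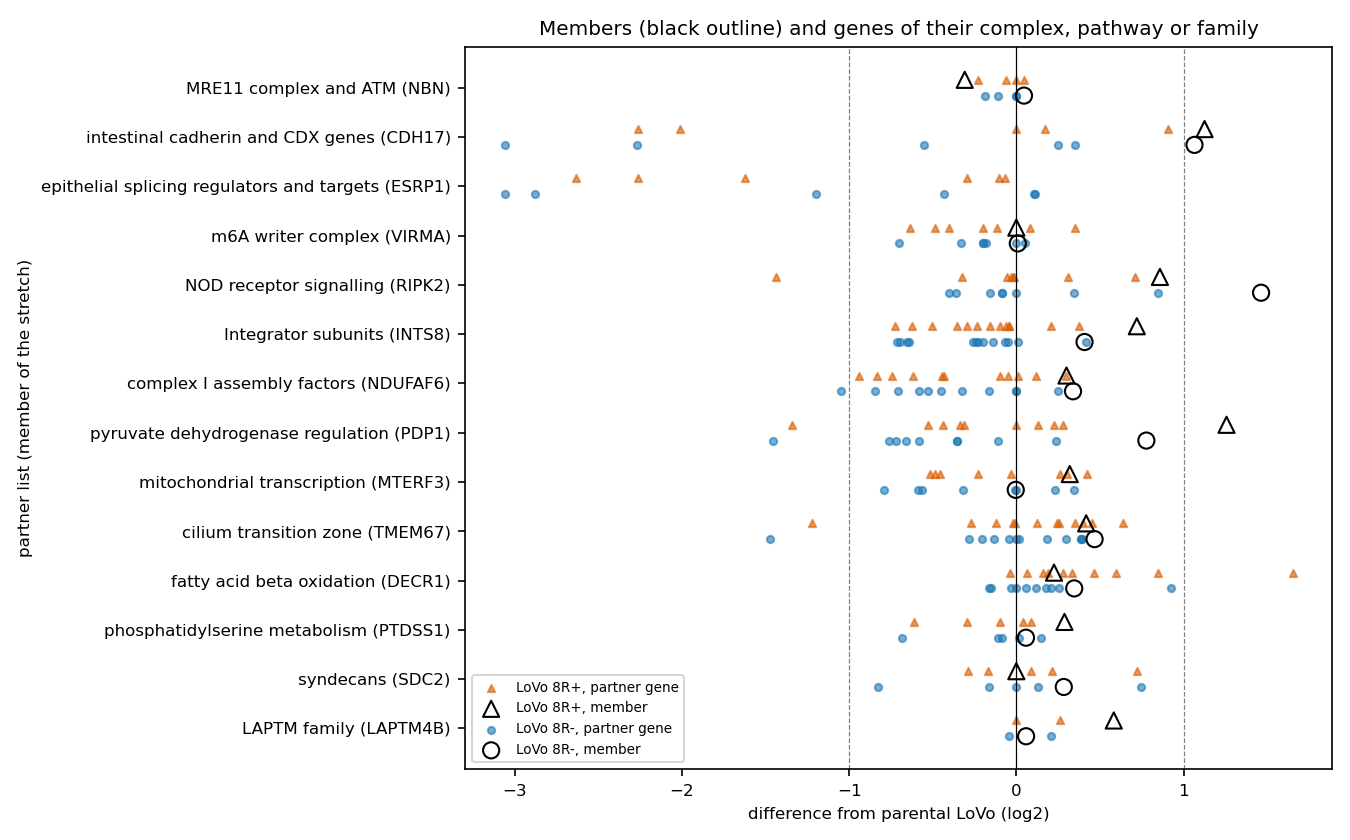
Log2 difference from parental LoVo (horizontal axis) of the measured genes of 14 partner lists (rows) in LoVo 8R+ (triangles) and LoVo 8R- (circles), with the member of the stretch outlined in black where it was measured (ESRP1 was not) and dashed lines at 2-fold. PDP1 lies at 1.26 (LoVo 8R+) and 0.78 (LoVo 8R-) while DLAT of its list lies at -1.34 (LoVo 8R+) and -1.45 (LoVo 8R-).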

How the data were processed

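The authors measured 300 ng of RNA per culture on Affymetrix Human Gene 1.0 ST arrays and deposited log2 levels of 33297 probe sets, made by RMA (background correction, quantile normalization over the 3 arrays, median polish). The submitters' notes name Affymetrix Expression Console 1.1, and the paper names R and Bioconductor. Samples were grouped by their labels. Of the probe sets, 19460 name 1 gene in the platform annotation, 1754 several and 12083 none. The brightest single-gene probe set stood for each of 18417 genes. Map order and gene class came from RefSeq (GRCh38.p14) through Entrez identifiers, which matched 18386 genes. No coordinates or sequences were used in the text. Differences are subtractions of log2 levels, counted at 2-fold, the fold limit of the paper, and at 1.5-fold. The paper also states a p-value limit, which was not applied. No test was run because each condition has 1 array, whose number limits the precision. The detection call filter of the paper was not applied.

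Members, roles, partner lists and the rule for named genes were set with earlier results of these data known. The rule takes every listed member, other protein-coding genes of the stretch past 2-fold and 3 known ones (CALB1, CCNE2, TP53INP1), 5 neighbours on each side, and up to 3 partners per list past 2-fold. UQCRB, CDX1, CDX2, VIL1, ESRP2, RBM47, other epithelial markers and neighbours farther out were added later. A further partner list is not reported here. The calculation was checked on simulated data with a known shift. Alternatives were thresholds of 1.5-fold and 3-fold, 3 rescalings of the arrays (median centring, loess with span 0.3 and 3 iterations, repeated quantile normalization), bright genes only, the mean over probe sets, leaving out the largest member, and all genes of the stretch. Python 3.11.15, numpy 2.4.6, pandas 2.3.3, statsmodels 0.14.6 and matplotlib 3.10.9 were used.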

Additional observations from a re-analysis of the deposited data

Results flagged for a closer look

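MATN2 was the 1 member whose LoVo-R8 levels lay on opposite sides of the parental level by at least 0.05 on each array. Its log2 difference from parental LoVo was 0.27 in LoVo 8R+ and -0.24 in LoVo 8R-, from levels of 7.18 in LoVo 8R+, 6.67 in LoVo 8R- and 6.91 in parental LoVo. The difference between the arrays was not tested, since each culture has 1 array, and the mean level of MATN2 is below the gene median of 7.51.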

How the results depend on the processing

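No paired analysis was possible because each condition has 1 array. The 3 rescalings of the arrays moved no member's difference by more than 0.12 and took 0 of them across 2-fold. The medians moved by less than 0.20, the size within which 68% of genes differed between the LoVo-R8 arrays, under every alternative run. The counts of members at least 2-fold higher depend on the threshold: for LoVo 8R+ they were 8 at 1.5-fold and 2 at 3-fold, and for LoVo 8R- 1 at 3-fold, in place of 5. Between the LoVo-R8 arrays, 1.5-fold gave 1 higher and 2 lower in place of 0 and 0. With all 35 measured genes of the stretch, 2 were at least 2-fold lower in LoVo 8R+ and 2 in LoVo 8R- in place of 0, and LoVo 8R+ set against LoVo 8R- had 1 gene at least 2-fold higher, CCNE2. The lower genes are CALB1 and CCNE2. Counts were taken to keep their size when equal, or when both were above 0 and their ratio was at most 1.5. Of 75 such summary values, 67 kept their size by these rules. Some of them could not change, such as those from the mean over probe sets, because each measured member has a single probe set. The filter on bright genes uses the mean of all 3 arrays, so CFAP418, RAD54B and TMEM67 pass it only through their LoVo-R8 levels. Signal near background limits NECAB1, RUNX1T1 and TSPYL5.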

Other observations

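Before the stretch, a run of neighbours had larger differences than the nearest ones. The transcription factor gene E2F5 was at 9.95 in LoVo 8R+, 10.31 in LoVo 8R- and 8.47 in parental LoVo, a log2 difference of 1.48 (LoVo 8R+) and 1.84 (LoVo 8R-). LRRCC1, a centrosome gene next to it, had 1.73 (LoVo 8R+) and 1.13 (LoVo 8R-), CA13, a carbonic anhydrase gene, 1.53 (LoVo 8R+) and 1.22 (LoVo 8R-), and ZFAND1 0.55 (LoVo 8R+) and 1.28 (LoVo 8R-). CA2, a carbonic anhydrase gene close to CA13 on the map, went the other way with -1.63 (LoVo 8R+) and -1.95 (LoVo 8R-). ZNF704, farther before the stretch, had -1.18 (LoVo 8R+) and -1.17 (LoVo 8R-). These genes were named after their values were seen, and no difference among them was tested.

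Beyond the stretch, the lowest neighbour was GRHL2, with -2.63 (LoVo 8R+) and -2.88 (LoVo 8R-). The kinase gene STK3 was 1.03 above parental LoVo in LoVo 8R+ and 0.98 above it in LoVo 8R-. RRM2B, which encodes a ribonucleotide reductase subunit, had 0.65 (LoVo 8R+) and 1.26 (LoVo 8R-), while the Wnt receptor gene FZD6 had -1.30 (LoVo 8R+) and -1.0 (LoVo 8R-).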
